A study of Mus musculus with 69 samples.

Results

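The expression of 10 muscle genes was followed in mouse lung, in the order of their known place in the heart: 4 atrial genes (Nppa, Myl7, Myl4 and Sln), 3 genes used by atrium and ventricle alike (Myh6, Actc1 and Tnnt2) and 3 ventricular genes (Myl2, Myl3 and Myh7). The genes were chosen by name, and their probes were the array probes whose accession belongs to one of these symbols in RefSeq. All 10 symbols were on the array, with 15 probes between them, among 18656 gene symbols that could be tested. Myl7, Sln, Actc1, Tnnt2 and Myl2 had 1 probe each and the other 5 genes had 2.

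The lungs came from female C57BL/6 mice that were 5 to 7 weeks old on arrival, acclimatised for 1 to 3 weeks, and then instilled once into the trachea. The instillate was nano-TiO2 at 18, 54 or 162 µg, of the kind named NRCWE-025 or of that named NRCWE-030, or the vehicle alone, which was water with 2% serum. Lungs were taken on day 1 or day 28, which gave 14 groups and 69 arrays, 1 mouse to an array. A group held 5 mice, except 162 µg of NRCWE-025 on day 28 with 4, and the vehicle mice of a day served both materials. The whole lung was collected, but RNA was made from a small frozen piece of it, and the sources do not say from which part of the lung the piece was cut. Each lung RNA (Cy5) was hybridised beside Universal Mouse Reference RNA (Cy3), a commercial pool, so every level below is a log2 ratio of lung to that pool for 1 gene. Such ratios rank lungs and not genes.

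Heart muscle is not confined to the heart in mice. A sheath of cardiac muscle of atrial type runs from the left atrium along the pulmonary veins into the lung, and it uses the atrial light chains, atrial natriuretic peptide and sarcolipin, as the atrium does. Ventricular muscle instead uses Myl2 and Myl3 as its light chains, and in the mouse Myh7 is the myosin heavy chain of the fetal ventricle and of slow skeletal muscle. In bulk RNA, fewer cells of a type and less RNA per cell cannot be told apart.

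The RNA was lung RNA by its markers. Sftpc, the surfactant protein of alveolar type II cells, lay between 4.97 and 8.29 (log2 lung over reference), Ager of alveolar type I cells between 4.26 and 5.91, and Cdh5 of endothelium between 4.62 and 5.78, on 69 of 69 arrays well above background. The share of spots with lung signal well above background was 49.1% to 72.8% per array (median 62.1%), and 0 spots were saturated.

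Promoter sequences are shown for 5 of the genes, picked for what the motif search found in them: the 3 with a CArG box, Nppa with a TATAAA box next to its start, and a window of Myh7 with no motif. RefSeq (build GRCm38.p6) gave promoters for 9 of the 10 genes. Sln was not among them. The 250 bases before the annotated start are printed in the sense of the gene, with capitals on the motifs found on either strand. The first of the 5 motifs searched was the CArG box, to which serum response factor binds, and the next the MEF2 site, named for the MEF2 factors of muscle. The TATAAA box places the start of transcription in many genes. The element read by TEAD factors in muscle promoters was searched as CATTCC. The core that factors of the GATA family bind in heart was searched as GATAA. Nppa lies on the + strand at chr4:148000472-148000721, Myl7 on the - strand at chr11:5898783-5899032, Actc1 on the - strand at chr2:114052876-114053125, Myl3 on the + strand at chr9:110763428-110763677, and Myh7 on the - strand at chr14:54994550-54994799 (the downstream one of its 2 annotated starts).
Nppa: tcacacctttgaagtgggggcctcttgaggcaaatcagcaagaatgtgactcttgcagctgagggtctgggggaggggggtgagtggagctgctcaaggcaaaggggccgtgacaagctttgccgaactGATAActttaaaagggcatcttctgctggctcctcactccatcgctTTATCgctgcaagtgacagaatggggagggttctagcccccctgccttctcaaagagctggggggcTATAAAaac
Myl7: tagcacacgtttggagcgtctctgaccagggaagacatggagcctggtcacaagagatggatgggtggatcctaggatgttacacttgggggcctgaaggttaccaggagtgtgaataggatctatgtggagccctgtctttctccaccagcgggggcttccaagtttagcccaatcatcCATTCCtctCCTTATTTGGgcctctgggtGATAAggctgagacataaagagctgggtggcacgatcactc
Actc1: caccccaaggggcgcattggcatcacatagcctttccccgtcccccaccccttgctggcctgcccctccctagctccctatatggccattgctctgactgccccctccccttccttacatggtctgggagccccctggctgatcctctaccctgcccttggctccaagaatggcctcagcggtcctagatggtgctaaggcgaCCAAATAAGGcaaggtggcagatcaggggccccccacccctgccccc
Myl3: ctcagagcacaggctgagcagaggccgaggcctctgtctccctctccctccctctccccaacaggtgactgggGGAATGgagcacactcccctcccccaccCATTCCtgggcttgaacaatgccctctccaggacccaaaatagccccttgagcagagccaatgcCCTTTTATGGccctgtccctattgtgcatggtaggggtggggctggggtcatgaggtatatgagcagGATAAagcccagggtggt
Myh7: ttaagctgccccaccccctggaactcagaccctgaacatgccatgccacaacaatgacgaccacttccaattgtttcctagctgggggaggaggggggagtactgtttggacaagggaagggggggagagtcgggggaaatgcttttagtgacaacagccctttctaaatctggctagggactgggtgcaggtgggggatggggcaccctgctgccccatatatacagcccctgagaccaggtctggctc

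Myl7, Actc1 and Myl3 each held 1 CArG box, which starts 61, 47 and 85 bases before the start site. A CArG box was in 1.47% of the 32851 windows of the same length in the promoter table. CATTCC was in 5 of the 12 windows of the 9 genes, against 12.6% of all windows, and GATAA likewise in 5, against 22.6%. TATAAA was found in 2 of the 12 windows, against 12.4% of all windows, and in Nppa it began 9 bases before the annotated start. The MEF2 site, present in 2.92% of all windows, was in none of the 12 member windows, and no motif overlapped another in the 5 printed here. The printed Myh7 window held no motif of the 5, and the window of its other start held 1 CATTCC, 201 bases before the start. The motifs did not separate Myh7 from the atrial and shared genes: the window of Myl4 also held none of the 5, and that of Myh6 held only 1 CATTCC, 206 bases before the start. Myh7 and Myh6 are neighbours on the - strand of chromosome 14, with 27.9 kb between their starts.

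Among the atrial genes, Myl7, the regulatory light chain of atrial myosin, was well above background on 69 of 69 arrays. Its log2 ratio ran from 0.61 in replicate 5 of NRCWE-030 18 µg day 1 through a median of 4.57 to 7.20 in replicate 3 of NRCWE-025 54 µg day 28, a 96.6-fold range. In the vehicle lungs of day 1 it was 5.83, 6.95, 3.51, 3.81 and 3.19, and in those of day 28 it was 5.67, 5.39, 6.11, 6.37 and 4.57. The day 28 vehicle lungs were all high, whereas day 1 held 2 high and 3 lower lungs, and the groups overlapped.

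Sln encodes sarcolipin, a small regulator of the sarcoplasmic reticulum calcium pump. Its probe was well above background on 45 of 69 arrays, with a lowest log2 ratio of -0.20, a median of 3.00 and a highest of 6.91. The vehicle lungs of day 1 had 5.36, 6.91, 0.12, -0.11 and 0.03, of which the last 3 were not well above background. Those of day 28 had 4.51, 4.32, 5.51, 5.85 and 3.09. Sln was therefore at the background in some lungs and far above it in others of the same group: the 24 arrays without signal came from 10 of the 14 groups, 16 of the 35 arrays of day 1 and 8 of the 34 of day 28.

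Myl4, the essential light chain of atrial myosin, was above background on 69 arrays and ran from -0.55 through a median of 0.68 to 4.50. Its vehicle lungs of day 1 had 1.95, 4.50, -0.26, -0.46 and -0.07, the same 2 lungs being high as for Myl7 and Sln. Nppa encodes the precursor of atrial natriuretic peptide. It was above background on 54 arrays by at least 1 of its 2 probes, with a lowest log2 ratio of -0.04, a median of 0.08 and a highest of 4.89. In the vehicle lungs of day 1 Nppa was 0.20, 4.89, 0.12, 0.02 and 0.07, so that 1 lung of 5 stood high, and in those of day 28 it was 0.74, 0.04, 1.38, 1.66 and -0.04. One Nppa probe was well above background on 23 arrays and the other on 54, and the 2 correlated with r = 0.95 over the 69 arrays.

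The shared genes were above background on all 69 arrays. Myh6, the alpha myosin heavy chain, which is the main one of the adult mouse heart, ran from 0.38 through 2.49 to 5.17. Actc1, cardiac actin, ran from -0.11 through 1.31 to 4.09. Tnnt2, cardiac troponin T, ran from -1.58 through 0.01 to 3.97. Replicate 2 of vehicle day 1 had the highest log2 ratio of the series for Nppa, Myl4, Sln, Actc1 and Tnnt2, and replicate 3 of NRCWE-025 54 µg day 28 had the highest for Myl7 and Myh6.

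The 3 ventricular genes each behaved in their own way. Myl2, the regulatory light chain of the ventricle, was well above background on 3 of 69 arrays, with log2 ratios from -0.26 through 0.03 to 0.27. The reference pool reached that level on 1 array only, so the ratios of Myl2 compare 2 signals near background and no fold is given for it. In replicate 2 of vehicle day 1, where 5 of the other genes peaked, Myl2 was 0.04 and not well above background.

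Myl3, the essential light chain of the ventricle and of slow muscle, ran from -0.39 through 0.05 to 2.08, but its 2 probes disagreed. Probe A_51_P177210 ran from -0.46 to 3.68 and correlated with Myl7 at r = 0.865, whereas probe A_51_P434910 ran from -0.61 to 0.59 and correlated with Myl7 at r = 0.538. The probes correlated with each other at r = 0.65, and the gene's value is their mean. Myh7, the beta heavy chain, was above background on 69 arrays and high in nearly all lungs, from 2.90 through 4.48 to 5.20. Its vehicle lungs of day 1 had 4.23, 4.24, 5.05, 5.20 and 5.02, which were lowest in the 2 lungs where Myl7 was highest.

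**Figure D1:**
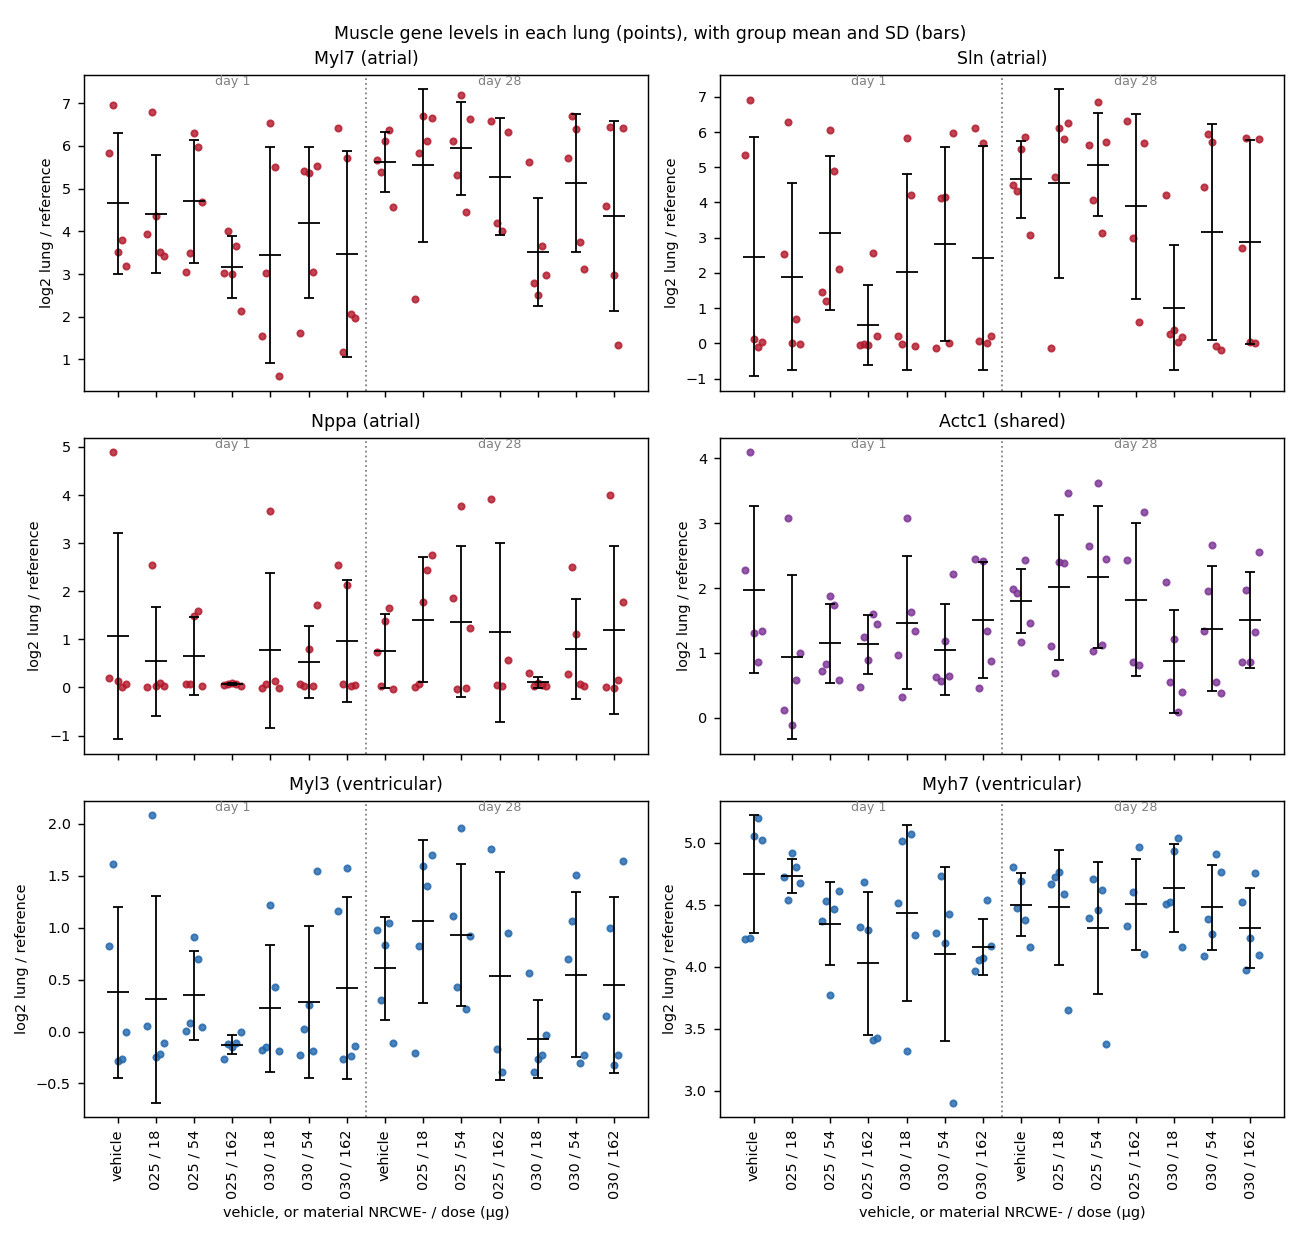
Log2 ratio of lung to reference (y axis) of 6 of the genes in each lung (points), by group (x axis: vehicle, or NRCWE-025 and NRCWE-030 with the dose in µg; day 1 left and day 28 right of the dotted line), with the group mean and SD as bars. Within most groups Myl7, Sln and Nppa spread over several log2 units, from 0.61 to 7.20 for Myl7, while Myh7 stayed between 2.90 and 5.20.

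The atrial and shared genes were among the most variable genes of the series between lungs of 1 group. The within-group SD, pooled over the 14 groups, was 2.51 for Sln (rank 3 of 18656), 1.66 for Myl7 (rank 10), 1.58 for Myl4 (rank 11), 1.56 for Tnnt2 (rank 12), 1.29 for Nppa (rank 25), 1.10 for Myh6 (rank 37) and 0.93 for Actc1 (rank 51). The median gene had an SD of 0.17 and the 99th percentile was 0.60. Of the ventricular genes, Myl3 had 0.72 (rank 107), Myh7 0.45 (rank 558) and Myl2 0.12 (rank 16313). All 7 atrial and shared genes and Myl3 were thus above the 99th percentile, and Myh7 and Myl2 were below it. These ranks are a description and were not tested. They moved with the processing for some genes. With the scanner log ratio Myh6 had an SD of 0.69 (rank 2078), Actc1 1.02 (rank 229), Myl2 0.79 (rank 986) and Myh7 0.29 (rank 10501). Myl3 had 0.70 (rank 339) without the replacement of marked backgrounds, and 1.26 (rank 27) when the brightest probe of each gene was used. Sln stayed at rank 2 or 3 in all of these, and Myl7 fell to rank 110 (SD 1.21) with the scanner log ratio and had an SD of 2.43 (rank 7) on Cy5 alone.

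**Figure D2:**
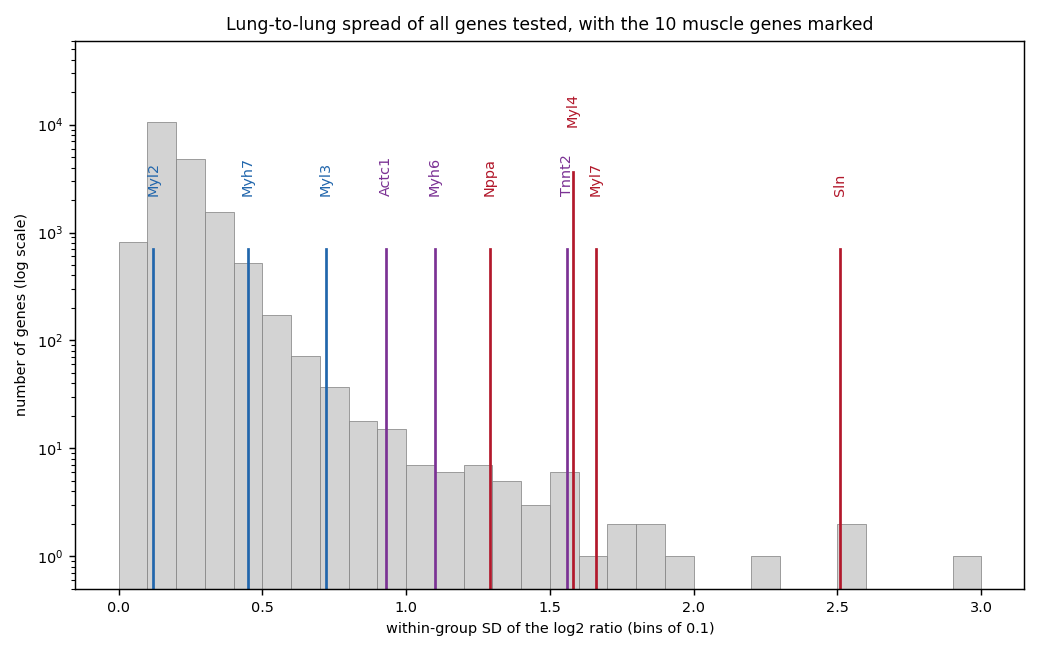
Number of genes (y axis, log scale) by within-group SD of the log2 ratio (x axis, bins of 0.1) for the 18656 genes tested, with the 10 muscle genes as coloured lines (red atrial, purple shared, blue ventricular). The atrial and shared genes lie between 0.93 and 2.51 in the far right tail, and Myl2 at 0.12 lies in the bulk.

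Whether these genes rise and fall together was asked with the group means removed, over the 69 lungs, with Myl7 against each of the other 9 genes. Lungs high in Myl7 were high in the other atrial genes. Pearson's r was 0.934 for Sln (Spearman's rho 0.943), 0.904 for Myl4 (rho 0.919) and 0.727 for Nppa (rho 0.756). The shared genes followed as well, with r = 0.892 for Tnnt2 (rho 0.916), 0.873 for Myh6 (rho 0.899) and 0.724 for Actc1 (rho 0.717). Each of these had a permutation p of 1e-05 for r and for rho, the smallest that the 100000 two-sided permutations within groups can give, and an adjusted p of 1.29e-05 over the 9 relations.

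The ventricular genes split. Myl3 followed Myl7 with r = 0.853 (rho 0.890, permutation p = 1e-05 for both, adjusted p 1.29e-05), and its less responsive probe alone gave r = 0.538 (permutation p = 5e-05). Myl2 had r = -0.084 (rho -0.068, permutation p = 0.56 and 0.625, adjusted p the same). Myh7 went the other way, with r = -0.386 (permutation p = 0.00404, adjusted p 0.00454) and rho = -0.399 (permutation p = 0.00232, adjusted p 0.00261). That inverse relation depended on the background correction: without the replacement of local backgrounds marked as outliers, r was -0.003 (adjusted p = 0.983).

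Among the 7 atrial and shared genes, the 21 pairs had r between 0.72 (Myl7 with Actc1) and 0.98 (Myl4 with Tnnt2), with a median of 0.87. The widest gap between neighbouring lungs in the log2 ratio of Myl7 was 0.63, from 4.69 to 5.32. For Sln the widest gap was 0.92. Whether the lungs form separate clusters was not tested. Without the 2 lungs farthest from the median of Myl7, which were replicate 1 of NRCWE-025 18 µg day 28 (3.13 below its group mean) and replicate 3 of NRCWE-030 18 µg day 1 (3.10 above), r was 0.927 for Sln, 0.698 for Nppa, 0.838 for Myl3 and -0.327 for Myh7 (adjusted permutation p = 0.00865).

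The relations were also computed within each day. On day 1 (35 lungs) r with Myl7 was 0.916 for Sln, 0.883 for Myl4, 0.753 for Nppa, 0.885 for Tnnt2, 0.825 for Myl3 and -0.330 for Myh7 (adjusted permutation p = 0.107). On day 28 (34 lungs) it was 0.959 for Sln, 0.935 for Myl4, 0.704 for Nppa, 0.902 for Tnnt2, 0.897 for Myl3 and -0.474 for Myh7 (adjusted permutation p = 0.0138). The inverse relation of Myh7 therefore passed the threshold on day 28 and not on day 1, and the difference between the days was not tested. Within the 7 scan days that held 6 to 8 arrays, r ranged from 0.88 to 0.95 for Sln, 0.85 to 0.97 for Myl4, 0.60 to 0.93 for Nppa, 0.75 to 0.96 for Myh6, 0.62 to 0.88 for Actc1, 0.85 to 0.95 for Tnnt2 and 0.73 to 0.92 for Myl3. For Myl2 it ranged from -0.67 to 0.65 and for Myh7 from -0.70 to 0.21. With so few arrays the adjusted permutation p was under 0.05 on 6 of the 7 scan days for Sln, Myl4, Tnnt2 and Myh6, on 5 for Nppa and Myl3, on 3 for Actc1, and on 0 for Myl2 and Myh7. The share of spots above background, a measure of array quality, had r = 0.21 with Myl7 (permutation p = 0.111) and rho = 0.24 (permutation p = 0.0702).

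**Figure D3:**
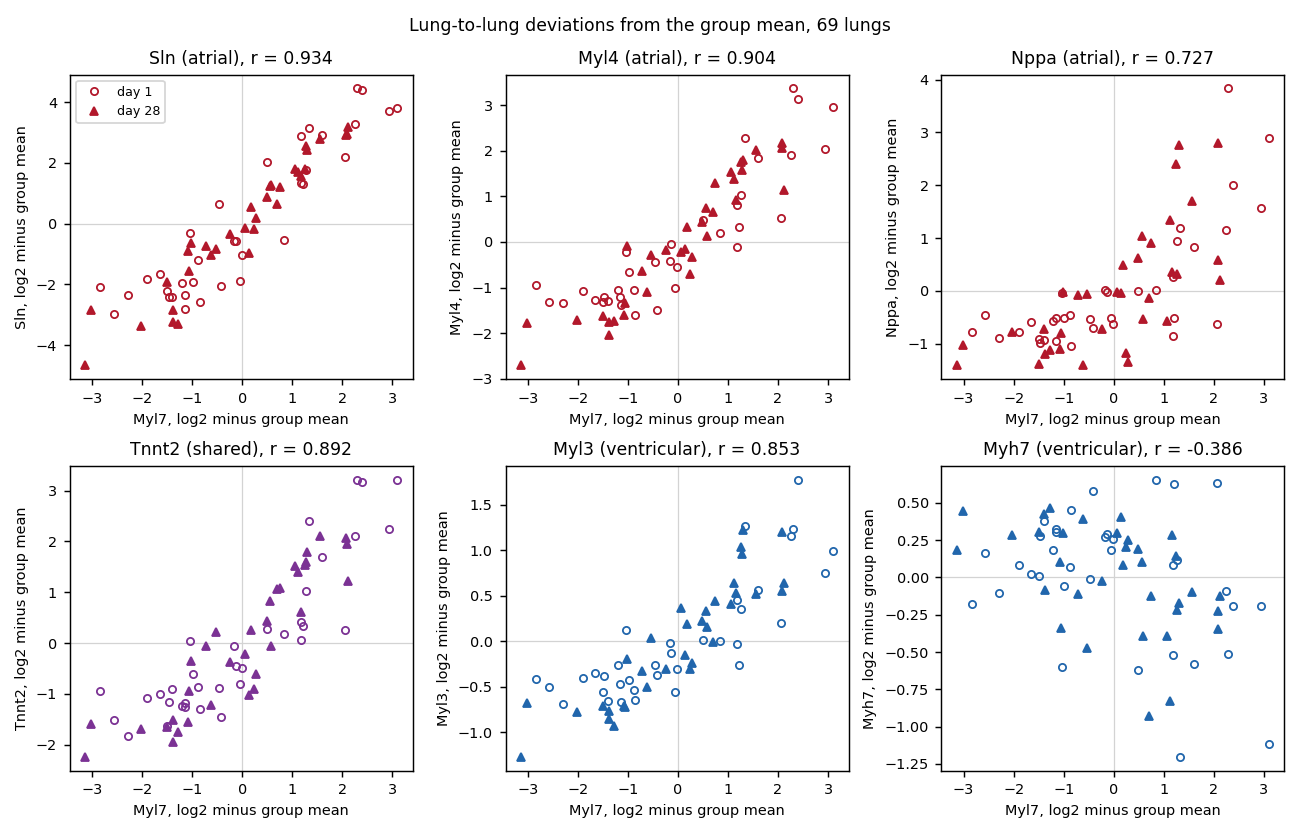
Deviation from the group mean in log2 ratio of 6 genes (y axes) against that of Myl7 (x axes) over 69 lungs, with open circles for day 1 and filled triangles for day 28. Sln, Myl4, Tnnt2 and Myl3 rise with Myl7 along a line, Nppa rises mainly at high Myl7, and Myh7 falls slightly (r = -0.386).

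**Figure D4:**
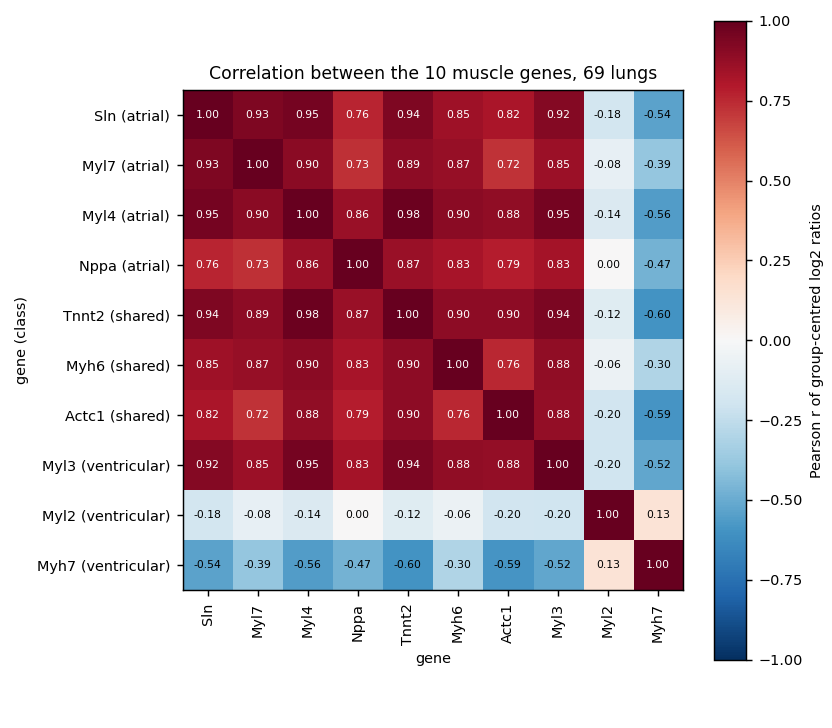
Pearson's r between all pairs of the 10 genes over 69 lungs with group means removed, as colour (red positive, blue negative) and number. The 7 atrial and shared genes and Myl3 form a block of positive values, whose 21 pairs of atrial and shared genes lie between 0.72 and 0.98, while the columns of Myl2 and Myh7 hold values around or below 0 with those genes.

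The genes most like the atrial and shared set were other genes of heart muscle. A mean profile of the 7 genes was made by standardising each gene, and of 18646 other genes 29 correlated with it at r of 0.9 or more, 99 at 0.8 or more, 281 at 0.7 or more and 820 (4.40%) at 0.5 or more, around a median of 0. No gene was at -0.7 or below, and the lowest was Hoxa7 at -0.69. These values over 69 lungs are descriptions, since the genes share the same arrays. The 15 highest were Ckmt2 (r = 0.991), Csrp3 (0.987), Tnni3 (0.984), Mybphl (0.977), Myoz2 (0.975), Mb (0.970), Cox7a1 (0.964), Tnnc1 (0.963), Mybpc3 (0.958), Myom2 (0.957), Actn2 (0.956), Fndc5 (0.954), Tcap (0.949), Mlip (0.946) and Pgam2 (0.940). Among them are the mitochondrial creatine kinase Ckmt2, cardiac troponin I (Tnni3), myoglobin (Mb) and the Z-disc proteins Csrp3, Myoz2, Actn2 and Tcap. Tnni3, above background on 69 arrays, ran in log2 ratio from -0.73 through 0.79 to 5.24.

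Lists of genes for heart and other muscle were set against the same profile, where 4.40% of all genes had r of 0.5 or more. Of 19 other genes for the cardiac sarcomere and calcium handling, 17 had r of 0.5 or more with the mean profile (median 0.90), up to Csrp3 (0.99) and Tnni3 (0.98), the exceptions being Slc8a1 (0.05) and Cacna1c (-0.29). All 9 genes for oxidative muscle metabolism did (median 0.93, from 0.80 for Cox6a2 to 0.99 for Ckmt2). Of 14 further genes linked to atrium or pulmonary vein, only Mybphl did (0.98; median of the list 0.13). The other 13 did not follow the profile. Of these, 7 were above background on 48 to 69 arrays, among them Gja5, the connexin 40 of arterial endothelium (r = -0.43), and Tbx5 (-0.24), and 6 on 0 to 12 arrays, such as Kcnj3 (0 arrays) and Bmp10 (6 arrays). Of 7 cardiac transcription factors, Myocd (0.63) and Tbx20 (0.57, above background on 6 arrays) passed 0.5, whereas Gata4 was at -0.02 and Tbx5 at -0.24. None of the 4 other ventricular genes did (median 0.06, from -0.07 for Hey2 to 0.11 for Irx4).

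Skeletal muscle was mostly apart. Of 13 fast skeletal genes 4 had r of 0.5 or more (median 0.23), the highest being Myl1 (0.93) and Myh4 (0.83) and the lowest Actn3 and Mylpf (0.02 and 0.03). Of the 13, Pvalb and Casq1 were well above background on 0 arrays, and the others on 21 (Myh2) to 69 arrays (Mylpf and Tnni2). Tnnt1 (0.49) and Tnni1 (0.14), of slow muscle, stayed under 0.5. Of 9 smooth muscle genes, 7 passed 0.5 (median 0.61), from Cnn1 (0.81) and Lmod1 (0.76) down to Synpo2 (0.47) and Smtn (-0.04).

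Markers of other tissues of the lung root and surface moved with the muscle genes in part. Of 7 fat genes 5 had r of 0.5 or more (median 0.76), led by Cfd (0.86) and Adipoq (0.85), with Cidec (0.06) and Ucp1 (0.15, above background on 2 arrays) lowest. The mean of the fat list ran from 0.52 to 5.26 over the lungs. The 4 mesothelial genes all had negative r (from -0.34 for Upk3b to -0.21 for Wt1). Of 4 cartilage genes, Chad passed (0.73), and Col2a1 (0.01) was lowest. Of 7 lung epithelial genes, Foxj1 of ciliated cells passed (0.56) and Sftpc was lowest (-0.20). None of 4 endothelial genes (median -0.28), 4 thymic genes (-0.06) or 2 blood genes (-0.08) passed. Their part in the levels of the muscle genes was not tested.

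The question of the study's design was whether the particles changed gene expression, and for these 10 genes no change passed the threshold. In limma's F-test over vehicle, 18, 54 and 162 µg, 0 of 10 genes were called in any of the 4 tests, at a Benjamini-Hochberg adjusted p under 0.05. Among all genes, 0.0214% were called for NRCWE-025 on day 1, 0.954% for NRCWE-030 on day 1, 0.0268% for NRCWE-025 on day 28 and 0.102% for NRCWE-030 on day 28. At an unadjusted p under 0.05, the 4 tests had 1, 0, 0 and 0 of the 10 genes, and the share of all genes is not given. The 1 gene was Myh7 with NRCWE-025 on day 1 (limma adjusted p = 0.392).

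On day 1 the largest median shift of the 10 genes was at 162 µg of NRCWE-025. Myl7 was there at 3.03, 4.01, 3.00, 3.65 and 2.13, and Sln at -0.06, -0.02, -0.05, 2.56 and 0.22, of which 1 was well above background. No lung of this group reached the level of the 2 high vehicle lungs, but it overlapped with the other 3. All 10 genes had a lower mean than in the vehicle lungs, with a median log2 difference of -1.10 against 0 for all genes, and 0 of 10 were called (0.209% of all genes were). Myl7 differed by -1.49 ± 0.77 (SE; means 3.16 and 4.66, 95% interval -3.09 to 0.10, limma adjusted p = 0.445). At an unadjusted p under 0.05 there were 2 genes, Myh6 (-1.66 ± 0.66, limma adjusted p = 0.294) and Myh7 (-0.72 ± 0.24, adjusted p = 0.204). Myh7 in these lungs was 4.32, 4.68, 4.30, 3.41 and 3.43, against 4.23 to 5.20 with vehicle. A background of 2288 genes, or 12.3% of all, had an unadjusted p under 0.05 in this contrast. Of the 10 genes 0 did once slide was a fixed block and 1 once scan day was. Leaving out either replicate 2 of vehicle or replicate 5 of the dose also left 1. For these settings the share of all genes is not given, so nothing is drawn from the lower counts.

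The other 5 contrasts of day 1 had 0 of 10 genes called and 0 under an unadjusted p of 0.05. That unadjusted limit was passed by 5.12% and 6.53% of all genes at 18 and 54 µg of NRCWE-025. For NRCWE-030 it was passed by 7.3%, 8.76% and 12.9% at 18, 54 and 162 µg. Among all genes 0% were called at 18 µg and 0% at 54 µg of NRCWE-025, and 0.00536%, 0.0804% and 1.69% at 18, 54 and 162 µg of NRCWE-030. At 162 µg of NRCWE-030, Myl7 was 6.41, 1.18, 5.72, 2.07 and 1.97, so that 2 lungs lay near the high vehicle lungs and 3 were below all vehicle lungs. Its mean differed by -1.19 (95% interval -3.75 to 1.37, limma adjusted p = 0.793), and that of Sln by -0.05 (-3.71 to 3.61, adjusted p = 0.997). With SEs up to 1.75, against a median SE of 0.11 for all genes, these intervals leave room for changes of several log2 units either way.

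On day 28 the group apart was the lowest dose of NRCWE-030. At 18 µg Myl7 was 5.63, 2.80, 2.50, 3.66 and 2.99, against 4.57 to 6.37 with vehicle. Sln was 4.20, 0.28, 0.38, 0.04 and 0.18, with 2 of 5 lungs above background, against 3.09 to 5.85. In both genes 4 of 5 lungs lay below all vehicle lungs, and replicate 1 overlapped with them. Replicate 5, among the 4 low lungs, was the array least like its deposited series matrix values. Its correlation with them was 0.922, against a median of 0.996 over the arrays, and the reason was not tested. The difference was -2.11 ± 0.88 (SE) for Myl7 (95% interval -3.93 to -0.28, limma adjusted p = 0.452) and -3.64 ± 1.33 for Sln (-6.41 to -0.87, adjusted p = 0.367). Myl4 differed by -2.04 ± 0.83 and Tnnt2 by -1.81 ± 0.80 (adjusted p = 0.441 and 0.51), while Myh7 differed by 0.13 ± 0.19 (adjusted p = 0.909).

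In that contrast 0 of 10 genes were called (0.118% of all genes were), and 6 of 10 had an unadjusted p under 0.05, namely Myl7, Sln, Myl4, Myh6, Actc1 and Tnnt2, beside 9.03% of all genes. That count of 6 depended on the processing and on single lungs. It was 0 on the series matrix values, which correlated least with the recomputed ones on replicate 5 of this dose. The count was 3 without the replacement of marked backgrounds, with scan day as a fixed block or in 1 fit of all groups. It was 1 without replicate 2 of the dose or replicate 4 of vehicle, and 3 without replicate 3, 4 or 5 of the dose or replicate 3 of vehicle. The share of all genes under these settings is not given, so whether the fall is particular to the 10 genes is not known.

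The means of some other lists also lay lower in these lungs, though every list's range overlapped with that of the vehicle lungs of day 28 and none was tested. The 19 cardiac sarcomere and calcium genes ran from -0.34 to 0.32 against 0.04 to 1.20 with vehicle, and the oxidative muscle genes from -0.51 to 0.36 against -0.13 to 1.49. Smooth muscle ran from 0.52 to 0.96 against 0.85 to 1.23, and the fat list, of another tissue, from 1.10 to 2.45 against 1.46 to 5.26. Fast skeletal muscle (-1.02 to -0.72 against -0.94 to -0.67), slow skeletal muscle (-2.0 to -1.49 against -1.90 to -1.43) and the other ventricular genes (0.10 to 0.33 against 0.08 to 0.17) lay close to vehicle or, for the last, reached higher. The part of the fat and smooth muscle in the levels of the 10 genes was not tested.

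Some slides held lungs of a dose and of vehicle, and the differences of Myl7 within them varied. At 18 µg of NRCWE-030 on day 28, Myl7 was lower in the treated lungs on each of 3 slides (by -3.31 to -0.04). At 54 µg on that day it was higher on each of 3 slides (0.04 to 1.84), and at 162 µg of NRCWE-030 on day 1 it was higher on both shared slides (2.53 and 2.61), although both mean differences over all lungs were negative. Of the 12 contrasts, 3 were lower on every shared slide, 2 higher on every one, 6 went both ways, and 1 had a single slide.

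The higher doses of NRCWE-030 on day 28 had smaller median differences over the 10 genes, -0.38 and -0.37 against -1.07 at 18 µg, with 9 and 8 of the 10 genes lower than vehicle, as 9 were at 18 µg. The doses were not tested against each other. At 54 µg Myl7 was 5.71, 6.70, 6.41, 3.75 and 3.11 and at 162 µg 4.60, 6.45, 2.97, 1.34 and 6.43, with differences from vehicle of -0.48 (-2.31 to 1.34) and -1.26 (-3.09 to 0.56; limma adjusted p = 0.969 and 0.795). Sln differed by -1.49 and -1.78 (SE 1.33 for both).

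NRCWE-025 on day 28 left the means near those of vehicle. Myl7 at 18 µg was 2.41, 5.83, 6.71, 6.11 and 6.67, with replicate 1 alone low, and its mean differed by -0.07 (95% interval -1.62 to 1.47). At 54 µg it was 6.13, 5.32, 7.20, 4.45 and 6.64 and at 162 µg 6.58, 4.20, 4.01 and 6.34, with differences of 0.33 (-1.22 to 1.87) and -0.34 (-1.98 to 1.30). The limma adjusted p was 0.990, 0.942 and 0.965. Of the 10 genes, 0 were called and 0 had an unadjusted p under 0.05 in these 3 contrasts, where 0.059%, 0.0268% and 0.0161% of all genes were called. The same held for 54 and 162 µg of NRCWE-030, with 0.0536% and 0.0965% of all genes called. The unadjusted limit was passed by 8.89%, 7.07% and 7.24% of all genes in the 3 contrasts of NRCWE-025. At 54 and 162 µg of NRCWE-030 it was passed by 6.52% and 7.51%. In none of the 12 contrasts did the lungs of a dose and of vehicle separate without overlap for any of the 10 genes. The share of all genes that separated is not given here, so nothing is drawn from this count.

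**Figure D5:**
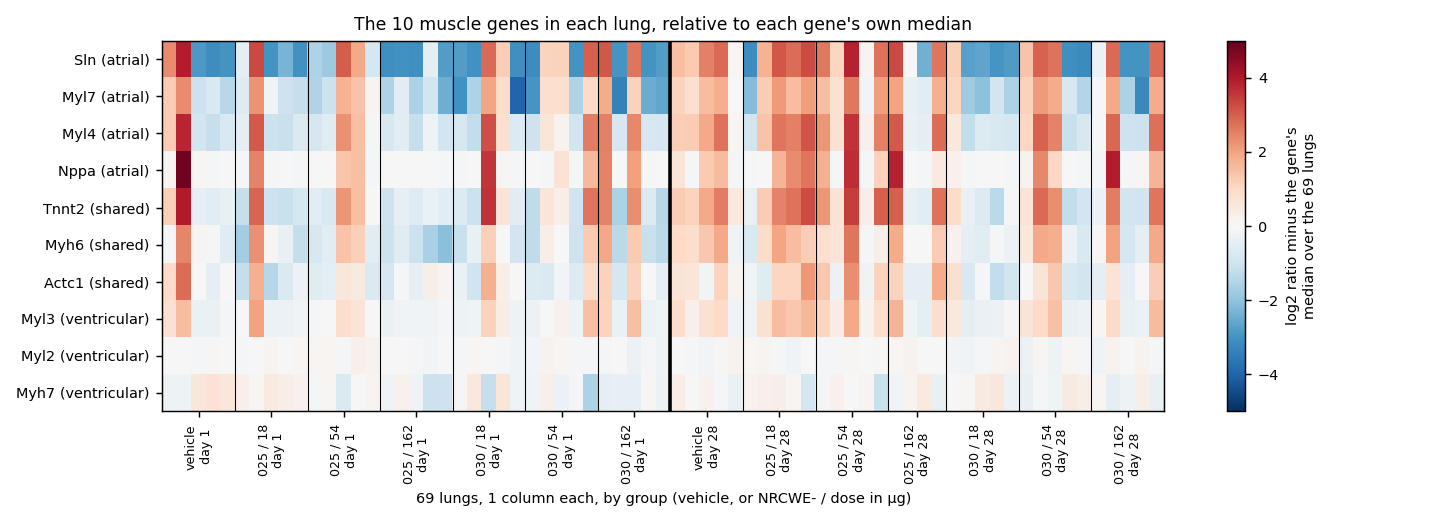
Log2 ratio of lung to reference, minus the median of the gene over all lungs (colour, red high and blue low), of the 10 genes (rows) in 69 lungs (columns), grouped by material, dose in µg and day. Red columns run through the atrial and shared genes and Myl3 in single lungs of most groups, among them 2 of the 5 vehicle lungs of day 1, and the rows of Myl2 and Myh7 stay pale.

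The materials and the days were compared in 1 fit of all 14 groups. The F-test over the 3 doses for NRCWE-030 minus NRCWE-025 called 0 of 10 genes on day 1 and 0 of 10 on day 28 (0.155% and 0.241% of all genes were called). At an unadjusted p under 0.05 it had 0 and 0 of the 10 genes, and the share of all genes is not given. On day 28 at 18 µg, Sln had a mean of 4.55 with NRCWE-025 and 1.01 with NRCWE-030, a difference of -3.53 ± 1.54 (SE; limma adjusted p = 0.683). Vehicle lungs of day 28 against day 1 also had 0 of 10 genes called (0.0375% of all genes were). At an unadjusted p under 0.05 there were 0 of 10, beside 8.51% of all genes. The differences ran from -0.31 for Nppa to 2.19 ± 1.54 for Sln (means 4.65 and 2.46, adjusted p = 0.723), and 6 genes were higher and 4 lower on day 28.

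Of the sum of squares of the 10 genes over 69 arrays, the 14 groups took 10.9% for Nppa to 28.3% for Myh6, where 13 of 68 degrees of freedom make 19.1%. Day alone took more than its 1.47% of the degrees of freedom for most of the genes, with 13.5% for Myh6, 9.23% for Myl7, 7.69% for Tnnt2, 7.66% for Myl4 and 7.42% for Sln, but 1.60% for Nppa and 1.09% for Myh7. Over all groups the mean of Myh6 was 2.28 on day 1 and 3.13 on day 28, and that of Myl7 4.01 and 5.05. The days were tested against each other in the vehicle lungs alone. The 19 slides took 27.3% (Myl3) to 43.2% (Myh6) with 26.5% of the degrees of freedom, and the 11 scan days 7.00% (Myl3) to 30.2% (Myl2) with 14.7%. Within single slides Myl7 differed between arrays by 0.33 to 5.86 (median 3.32). The count of called genes among the 10 stayed at 0 with slide as a random block, with either slide or scan day fixed, and with each array left out in turn.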

How the data were processed

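Lung RNA (Cy5) of 69 mice was hybridised with 1 common reference RNA (Cy3) on Agilent arrays, with no dye swap. The deposited scanner files (Agilent Feature Extraction 11.0.1.1) hold spot and local background signals as linear intensity, uncorrected. The deposited log ratio is a log10 of Cy5 over Cy3 by the scanner software, and deposited flags, of type other, are 0 or 1 per spot. The deposited series matrix holds log2 values that the authors made by LOWESS. Their scale was checked against the spots (median correlation 0.996, lowest 0.922 in replicate 5 of NRCWE-030 18 µg day 28).

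Values were recomputed in limma 3.58.1 (R 4.3.3, statmod 1.5.0; plots in Python 3.11.15 with matplotlib 3.10.9). Each local background marked as an outlier by the scanner software was set to the median of the unmarked ones on its array, normexp (offset 50) then corrected the background, and loess was run within each array. Flagged and control spots were left out, and the median was taken over spots and over probes of a symbol. Of 41174 probes, 27479 (66.7%) had a RefSeq symbol. Of 18749 symbols, 93 lacked a value on some array and 18656 were tested. The number of arrays and their signal over background limit the precision.

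Groups came from the labels. Each material and day had 1 limma fit with its vehicle lungs, with a moderated F-test for dose and 3 contrasts, and 1 fit of all 14 groups compared materials and days. Tests were two-sided and adjusted by Benjamini-Hochberg over all 18656 genes, called under 0.05, and p-values and intervals of groups of 4 or 5 are limma's. Correlations used values minus the group mean, with 100000 permutations within groups and adjustment over 9 relations. With 1 array left out there were 10000 permutations. Within a scan day there were fewer, made over all its arrays and not within groups. With slide means removed in place of group means, they were made within slides. The fit was tested on simulated data with independent, normally spread values. That test does not cover genes that move together or lie at background, as the members do in part. Nothing says whether mice of a group shared a cage or batch, so p-values measure the spread between these mice. The genes named are the 10 members, the 15 genes most like the mean of the 7 atrial and shared members, and, of each list, the genes called and those with the 2 highest and 2 lowest correlations, apart from some results not reported here. Defining markers, list genes named for their detection, and genes of the most variable 25 were named after their values were seen. The members and lists were chosen with earlier results of these data known. One list is a bicluster (gene set) of the study with 17 genes tested, chosen by the study in other series.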

Additional observations from a re-analysis of the deposited data

Results flagged for a closer look

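Of 140 tests (10 genes in 14 groups), 18 (12.9%) found 1 lung far from the others of its group by Dixon's criterion. By chance the criterion marks about 1 in 20 in normally spread values. Most of the 10 genes move together over the same lungs, and Nppa and Sln lie at background in some lungs. The share over all genes is not given, so no excess is drawn from the 12.9%. The 18 came from 11 lungs. Values are log2 lung over reference, with the range of the other lungs of the group in brackets.

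Replicate 2 of vehicle day 1 was high in Nppa at 4.89 (0.02 to 0.20) and Myh6 at 4.95 (1.90 to 2.62). Replicate 2 of NRCWE-025 18 µg day 1 was high in Nppa at 2.55 (0.00 to 0.08), Myl7 at 6.80 (3.42 to 4.36), Myl4 at 3.75 (-0.44 to 0.18), Tnnt2 at 2.93 (-1.13 to -0.85) and Myl3 at 2.08 (-0.24 to 0.05). Replicate 3 of NRCWE-030 18 µg day 1 was high in Nppa at 3.66 (-0.01 to 0.14). Replicate 1 of NRCWE-025 162 µg day 28 was high in Nppa at 3.91 (0.03 to 0.58). Replicate 1 of NRCWE-030 18 µg day 28 was high in Nppa at 0.31 (0.03 to 0.09) and Sln at 4.20 (0.04 to 0.38). Replicate 1 of NRCWE-025 18 µg day 28 was low in Myl7 at 2.41 (5.83 to 6.71) and Sln at -0.12 (4.72 to 6.24). Replicate 4 of NRCWE-025 162 µg day 1 was high in Sln at 2.56 (-0.06 to 0.22). Replicate 5 of NRCWE-030 54 µg day 1 was high in Myl3 at 1.55 (-0.22 to 0.26). Replicate 3 of NRCWE-025 54 µg day 1 was low in Myh7 at 3.77 (4.37 to 4.61). Replicate 5 of NRCWE-025 18 µg day 28 was low in Myh7 at 3.65 (4.59 to 4.77). Replicate 5 of NRCWE-025 54 µg day 28 was low in Myh7 at 3.38 (4.40 to 4.71).

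The low lung of NRCWE-025 18 µg day 28 was also 1 of the 2 lungs left out above as farthest from the median of Myl7. No difference between the materials passed the threshold in these genes, and the effect of dose was not compared between the days. What sets these lungs apart was not tested.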

How the results depend on the processing

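The count of called genes among the 10 was 0 in all 19 comparisons and stayed 0 under the alternatives run: normexp without replacing marked backgrounds, no background correction, scanner log ratio, series matrix values, Cy5 alone, brightest probe, a filter for bright probes, slide as random or fixed block, scan day as fixed block, 1 fit of all groups, and each array left out. Of the correlations with Myl7, those of Sln, Myl4, Nppa, Tnnt2, Myh6, Actc1 and Myl3 kept their sign under every alternative over the whole series. They also kept their side of the threshold, with the lowest r 0.538 (1 probe of Myl3), 0.618 (Nppa) and 0.627 (Actc1). Nppa came close to the threshold, with a largest adjusted permutation p of 0.0491. The cause of the range of Myh7 was not tested. The correlation of Myh7 was -0.003 (adjusted permutation p = 0.983) without replacing marked backgrounds, and -0.542 at its most negative. With each array left out in turn it was -0.443 to -0.315. That of Myl2, never called, turned to 0.164 with the scanner log ratio and 0.071 on Cy5 alone. Leaving out replicate 5 of NRCWE-030 18 µg day 28, using only arrays with all probes above background, and taking each probe of Myl3 alone were chosen after seeing the data. Within single scan days of 6 to 8 arrays, Sln, Myl4, Nppa, Tnnt2, Myh6, Actc1 and Myl3 kept their sign but not always the threshold. Their r went down to 0.597 (Nppa) and 0.616 (Actc1), while Myl2 (-0.67 to 0.65) and Myh7 (-0.70 to 0.21) changed sign. Of the recomputed SDs, 18 moved by more than their sampling error and 42 did not.

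No paired analysis was possible because the labels give each mouse its own number and no number is shared between groups. Slides shared by groups were used instead, as a block and for differences within slides. Near background the ratio understates differences, which touches Sln, Nppa, Myl2 and Myl3 most.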

Other observations

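The genes that vary most between lungs of 1 group include other kinds that moved with the heart muscle genes. Of the 25 genes with the highest within-group SD, Clca1, Muc5b, Bpifa1, Bpifb1, Tff2, Agr2 and Reg3g are known from secretory and glandular cells of the larger airways. Their r with the mean profile of the 7 atrial and shared genes over 69 lungs was 0.72 for Clca1 (SD 2.90, the highest of 18656 genes), 0.83 for Muc5b, 0.66 for Bpifa1, 0.83 for Bpifb1, 0.88 for Tff2, 0.77 for Agr2 and 0.80 for Reg3g. The fat genes Cfd (SD 2.52, r = 0.86), Car3 (SD 1.52, r = 0.83) and Adipoq (SD 1.41, r = 0.85) were among the 25 too. Saa3, an acute phase gene, had an SD of 1.54 and r = 0.42, Mup1 an r of 0.11 and Cyp26b1 an r of -0.25. These genes were picked by their spread, and their relations are descriptions with no test.

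Of a gene set that the study derived from lung disease models and that holds Actc1, Myh6 and Myl7, 13 of the 14 other genes tested had r of 0.5 or more with the mean profile (median 0.88), the exception being Pon1 (0.24). Listed genes called by limma in a contrast of a dose with vehicle included, all lower at 162 µg of NRCWE-030 on day 1, Cidec (-1.36 ± 0.31 SE, adjusted p = 0.0306), Pon1 (-1.34 ± 0.31, adjusted p = 0.0327) and Hba-a1 (-0.65 ± 0.14, adjusted p = 0.0207). With the mean profile, Cidec had r = 0.06, Pon1 0.24 and Hba-a1 -0.05.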
